A study of Solanum lycopersicum with 12 samples.

Results

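The genes described here build or regulate suberin in tomato (Solanum lycopersicum) roots: 6 enzymes, CYP86A1, CYP86B1, GPAT4, GPAT5, ASFT and LACS, and 3 R2R3-MYB transcription factors, MYB92, MYB41 and MYB63. They were picked by identifier, and 8 of the 9 identifiers have a row among the 35768 gene models of the deposited expression table. LACS, a long-chain acyl-CoA synthetase (Solyc01g095750), was not analysed here. The set was put together with the values of all 4 groups already known, so its levels and differences are a description. Counts of its genes called in a fit over all genes are printed beside the share of all genes called and are not evidence for the set. The table carries no gene names; those used here come with the list of identifiers, and chromosome numbers are the ones contained in the identifiers.

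Suberin is a polyester of fatty acids, glycerol and ferulic acid that is laid down inside the walls of certain root cell layers, where it limits the movement of water and ions. In tomato roots it is known mainly from the exodermis, a layer under the epidermis. Cytochromes P450 of the CYP86 family hydroxylate the end of the fatty acid chain, glycerol-3-phosphate acyltransferases (GPAT) join the acids to glycerol, a long-chain acyl-CoA synthetase activates them, and the feruloyl transferase ASFT adds ferulate. R2R3-MYB factors are known to switch on these genes, as MYB92 and MYB41 do in Arabidopsis.

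The roots came from plants 20 days old, either wild type (WT) or a mutant of SlSTOP1, slstop1. STOP1 is a zinc finger transcription factor needed for tolerance of aluminium (Al) and acidity in Arabidopsis. Each genotype was given 0 or 60 µM Al at pH 4.7, and all 4 groups thus shared the acid medium. There were 3 libraries per group, 12 in all, labelled as biological replicates; the sample titles abbreviate the mutant as KO, without saying what the mutation is or how many independent lines were used. Whole roots were measured, so a change in the number of suberised cells and a change in RNA per cell cannot be told apart.

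Values are FPKM, in which fragments are scaled to the length of the transcript and the size of the library, so that levels of different genes can be set side by side. The number of reads per library is unknown. The targeted gene SlSTOP1 stood at 56.0 to 79.2 FPKM in WT without Al and at 33.5 to 39.8 FPKM in slstop1 without Al; with Al the ranges were 80.8 to 88.6 and 27.7 to 30.02 FPKM. It was below WT in every slstop1 library. The 3 markers of root tissue fixed for the check, the iron regulator FER, the phosphate transporter SlPT1 and the potassium transporter SlHAK5, were all detected in every library. They were lower with Al in slstop1, and SlHAK5 and SlPT1 also in WT. SlHAK5 stood at 59.0 to 192 FPKM in WT without Al, 14.8 to 30.8 with Al, 33.0 to 88.1 in slstop1 without Al and 0.74 to 1.04 with Al. SlPT1 averaged 205, 78.3, 177 and 18.7 FPKM in the same order, and FER averaged 51.2, 48.5, 30.9 and 7.54 FPKM. In limma's test all 3 markers fell with Al in slstop1 and 2 of 3 did in WT, FER being the exception. Of all tested genes 45.5% fell in slstop1 and 39.0% in WT. Between genotypes with Al all 3 were called lower in slstop1, against 8.12% of all tested genes. Without Al 0 of the 3 were called, against 0.176% in either direction. Of 10 photosynthesis markers, 2 passed the filter on low values, and CAB Solyc02g071000.1 was at 0 in every library. In limma's test 1 of these 2, CAB Solyc03g005760.1, fell with Al in each genotype, against the same 39.0% of all tested genes in WT and 45.5% in slstop1. The summed level of the 10, most of it in slstop1 with Al from RBCS Solyc03g034220.3, was 24.6 to 60.1 FPKM in WT without Al, 17.3 to 32.3 in WT with Al, 23.4 to 55.5 in slstop1 without Al and 58.4 to 81.2 in slstop1 with Al. The part of these shifts in the values below was not tested.

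Of the 5 suberin enzymes with values, 4 were low in roots without Al and high in WT roots with Al, and with Al they were lower in slstop1 than in WT. The summed level of the 5 was 2.77, 5.19 and 13.8 FPKM in the WT libraries without Al, in order of size, and 110, 114 and 135 FPKM with Al. In slstop1 the sum was 7.71, 10.2 and 11.0 FPKM at 0 µM Al and 16.0, 19.0 and 40.0 FPKM at 60 µM. The genotypes overlapped without Al and were far apart with Al. Most of the sum came from ASFT and GPAT4, while CYP86A1 stayed below 2 FPKM throughout. MYB63 was higher with Al in both genotypes, at overlapping levels.

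**Figure D1:**
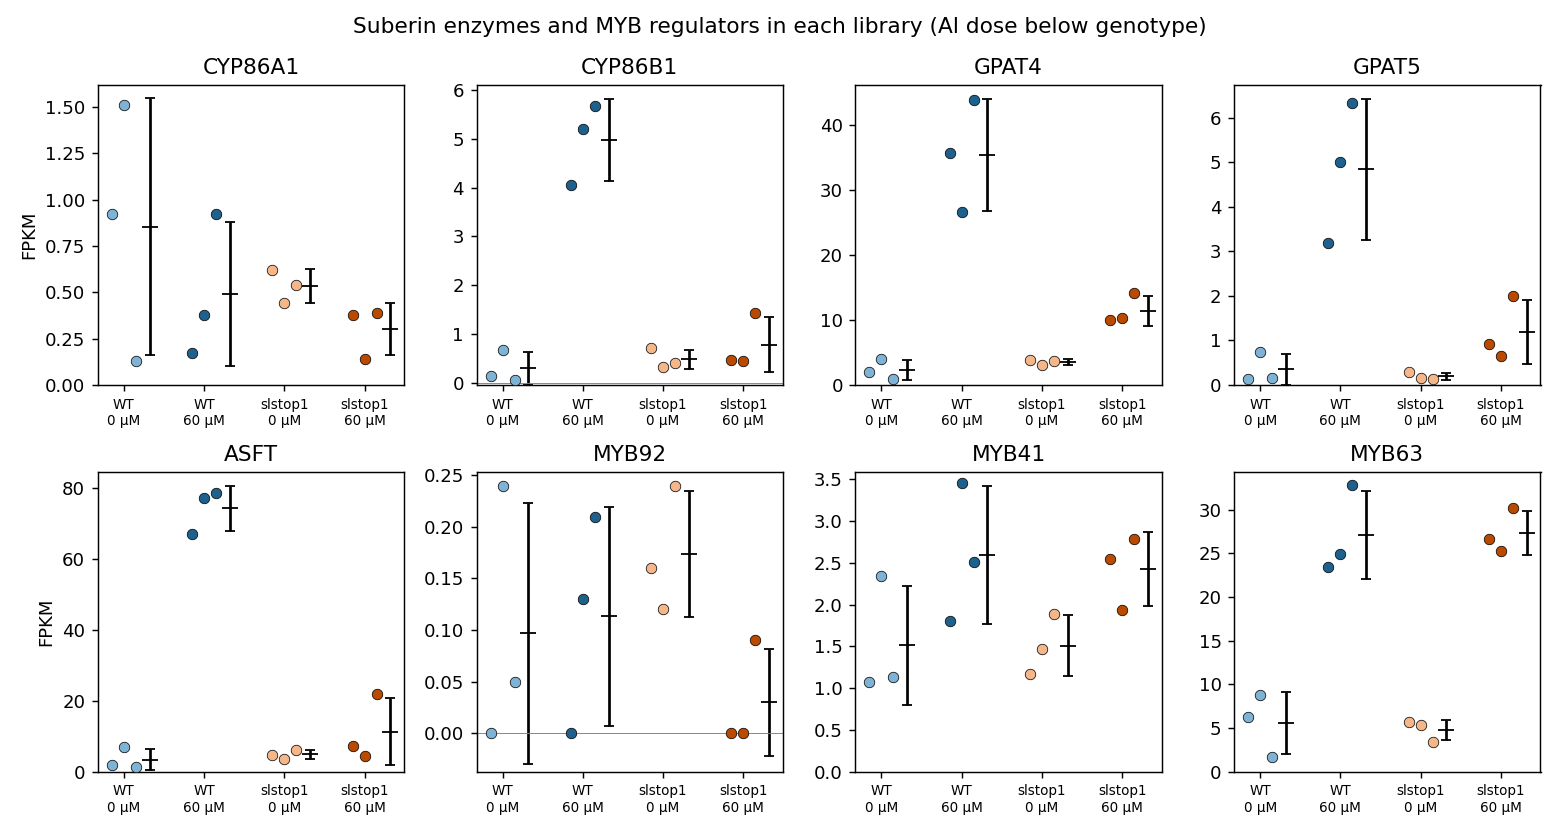
FPKM of each of the 8 genes (vertical axis) in the 12 libraries, by genotype and Al dose; points are libraries, and the bars beside them give the mean and SD of 3 libraries. CYP86B1, GPAT4, GPAT5 and ASFT are highest in WT with Al, with every slstop1 library below, while MYB63 lies at 23.4 to 32.8 FPKM in WT and 25.3 to 30.2 FPKM in slstop1 with Al.

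ASFT (Solyc03g097500.3, chromosome 3), the feruloyl transferase, had the highest mean level of the enzymes in 3 of the 4 groups; in slstop1 with Al the mean of GPAT4 was the higher, and their libraries overlapped. It read 2.03, 6.86 and 1.44 FPKM in WT without Al (replicates 1, 2 and 3) and 66.9, 77.1 and 78.4 FPKM with Al. In slstop1 it read 4.74, 3.71 and 6.26 FPKM at 0 µM Al and 7.31, 4.46 and 22.0 FPKM at 60 µM. WT libraries with Al stood clear of all others, while the slstop1 libraries with and without Al overlapped and only replicate 3 was clearly raised. The mean with Al was 74.2 ± 6.31 FPKM in WT and 11.3 ± 9.42 FPKM in slstop1 (SD, n = 3), 6.58 times lower in the mutant. Without replicate 3 of slstop1 with Al, the mutant mean was 5.89 FPKM, against 4.90 FPKM without Al, and the WT level was 12.6 times as high. In WT the mean with Al was 21.5 times that without. The ratio was 42.7 without replicate 2 of WT without Al, the library at 6.86 FPKM, and 16.7 without replicate 3 of that group.

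GPAT4 (Solyc01g094700.3, chromosome 1), an acyltransferase that joins fatty acids to glycerol, was next in level in those 3 groups. It read 1.96, 3.97 and 0.99 FPKM in WT without Al and 35.8, 26.6 and 43.8 FPKM with Al. In slstop1 it read 3.89, 3.08 and 3.64 FPKM at 0 µM Al and 9.94, 10.3 and 14.1 FPKM at 60 µM. Unlike ASFT, GPAT4 was higher with Al in every slstop1 library, by 3.24 times in the mean, and still 3.09 times lower there than in WT with Al. In WT the mean with Al was 15.3 times that without (24.0 times without replicate 2 of WT without Al, 11.9 times without replicate 3).

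GPAT5 (Solyc04g011600.3, chromosome 4), an acyltransferase whose Arabidopsis homologue acts in root and seed coat suberin, was nearly silent without Al. In WT it read 0.14, 0.75 and 0.15 FPKM at 0 µM and 3.19, 5.01 and 6.33 FPKM at 60 µM. The slstop1 values were 0.28, 0.16 and 0.14 FPKM at 0 µM and 0.92, 0.64 and 2 FPKM at 60 µM. The groups with and without Al did not overlap in either genotype, and every slstop1 library with Al lay below every WT library with Al. The mean with Al was 4.84 ± 1.58 FPKM in WT and 1.19 ± 0.718 FPKM in slstop1, a ratio of 4.08, or 6.21 without replicate 3 of slstop1 with Al. In slstop1 the mean with Al was 6.14 times that without, or 4.03 times without that library. In WT the ratio was 13.97. It was 33.4 without replicate 2 of WT without Al, 10.9 without replicate 3 and 10.8 without replicate 1.

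CYP86B1 (Solyc02g014730.3, chromosome 2), a hydroxylase that in Arabidopsis acts on very-long-chain fatty acids, read 0.14, 0.67 and 0.06 FPKM in WT without Al and 4.05, 5.21 and 5.68 FPKM with Al. In slstop1 it read 0.7, 0.32 and 0.41 FPKM at 0 µM Al and 0.47, 0.44 and 1.43 FPKM at 60 µM. The slstop1 groups overlapped, as those of ASFT did, and replicate 3 with Al was again the highest. With Al the WT mean was 6.38 times the slstop1 mean, or 10.9 times without that library. In slstop1 the mean with Al was 1.64 times that without, and 0.955 times when that library was left out. In WT the mean with Al was 17.2 times that without, a ratio that rests on values well under 1 FPKM without Al and became 49.8 without replicate 2 of WT without Al.

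CYP86A1 (Solyc06g076800.3, chromosome 6), the hydroxylase of shorter chains whose Arabidopsis homologue makes most of the root's aliphatic suberin, did not share the pattern of the other enzymes. It read 0.92, 1.51 and 0.13 FPKM in WT without Al, 0.17, 0.38 and 0.92 FPKM in WT with Al, 0.62, 0.44 and 0.54 FPKM in slstop1 without Al, and 0.38, 0.14 and 0.39 FPKM in slstop1 with Al. The WT groups overlapped, as did the genotypes at both doses, and the slstop1 libraries with Al were below those without. Only 1 library reached 1 FPKM, so CYP86A1 stayed under the filter for testing.

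The regulators differed from one another and from the enzymes. MYB63 (Solyc10g005460.3, chromosome 10) read 6.27, 8.76 and 1.69 FPKM in WT without Al and 23.4, 25.0 and 32.8 FPKM with Al. In slstop1 it read 5.65, 5.3 and 3.44 FPKM at 0 µM Al and 26.6, 25.3 and 30.2 FPKM at 60 µM. Every library with Al was above every library without, and the genotypes overlapped at both doses. This overlap rested on replicate 3 of WT at each dose. Without that library, slstop1 lay below WT at 0 µM Al (0.638 times the mean) and above it at 60 µM (1.13 times). The mean with Al was 4.86 times that without in WT and 5.70 times in slstop1.

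MYB41 (Solyc02g079280.3, chromosome 2) was low in all groups. It read 1.08, 2.34 and 1.13 FPKM in WT without Al and 1.81, 3.46 and 2.51 FPKM with Al, and 1.17, 1.47 and 1.89 FPKM in slstop1 without Al and 2.55, 1.94 and 2.79 FPKM with Al. The mean with Al was 1.71 times that without in WT, where the groups overlapped, and 1.61 times in slstop1, where they did not.

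MYB92 (Solyc05g051550.2, chromosome 5) was at the edge of detection. It read 0, 0.24 and 0.05 FPKM in WT without Al, 0, 0.13 and 0.21 FPKM in WT with Al, 0.16, 0.12 and 0.24 FPKM in slstop1 without Al, and 0, 0 and 0.09 FPKM in slstop1 with Al. The libraries with and without Al did not overlap in slstop1, where those with Al were lower, and overlapped in the other comparisons. A value of 0 can be a failed estimate, so no fold is given. MYB92 stayed under the filter.

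The order of the levels differed between the groups. In WT without Al MYB63 led at 5.57 ± 3.59 FPKM (SD, n = 3), followed by ASFT, GPAT4, MYB41, CYP86A1, GPAT5, CYP86B1 and MYB92, and each overlapped the next. In WT with Al ASFT led, clear of GPAT4 at 35.4 ± 8.62 FPKM, which overlapped MYB63 at 27.1 ± 5.02 FPKM; CYP86B1, GPAT5 and MYB41 followed, and CYP86A1 and MYB92 were last. In slstop1 without Al ASFT and MYB63 overlapped at the top, at 4.90 ± 1.28 and 4.80 ± 1.19 FPKM. In slstop1 with Al MYB63 led at 27.3 ± 2.52 FPKM, clear of GPAT4 at 11.5 ± 2.33 FPKM and ASFT, which overlapped each other.

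On the log2(FPKM + 1) scale, which understates differences of low genes, 15903 gene models that reached 1 FPKM in at least 3 libraries were fitted together with limma. Among them were 6 of the 8 genes, CYP86B1, GPAT4, GPAT5, ASFT, MYB41 and MYB63. CYP86B1 and GPAT5 passed that filter only through the libraries with Al, 3 of 3 in WT and 1 of 3 in slstop1. The filter thus favoured a difference in comparisons that involve WT with Al, the difference in Al response included. With Al in WT, 5 of the 6 had an adjusted p under 0.05, all upward, where 21.9% of all tested genes were called upward. In slstop1 3 of the 6 were called upward (GPAT4, GPAT5 and MYB63), against 21.3% of all genes. Between genotypes without Al, 0 of the 6 were called, against 0.176% of all genes. At an unadjusted limma p under 0.05 there were also 0, and the share of all genes at that threshold was not computed. With Al the 4 enzymes were called lower in slstop1, against 8.12% of all genes. For the difference between the genotypes' Al responses, 2 of the 6 were called, CYP86B1 and GPAT4, both lower in slstop1, against 0.975% of all genes. After median-of-ratios scaling of the libraries, which moved the median of all genes toward 0, the shares of all genes were 28.3% upward in WT, 31.5% upward in slstop1, 5.08% lower in slstop1 with Al and 0.528% for the lower response. The suberin genes called were then 6, 5, 4 and 1 of the 6, and with quantile normalisation 6, 6, 4 and 0. With quantile normalisation the counts over all 15903 genes were, in that order, 4617 and 5478 upward, 502 lower and 47 lower. In the same order of comparisons, the libraries of the compared groups did not overlap for 5 of the 6 with Al in WT (22.7% of all tested genes lay higher in this way), 4 of the 6 in slstop1 (26.2%), 0 of the 6 between genotypes without Al (8.16% in either direction) and 4 of the 6 between genotypes with Al (26.8% lay lower). These counts are read as a description, since the genes were chosen with these values known.

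**Figure D2:**
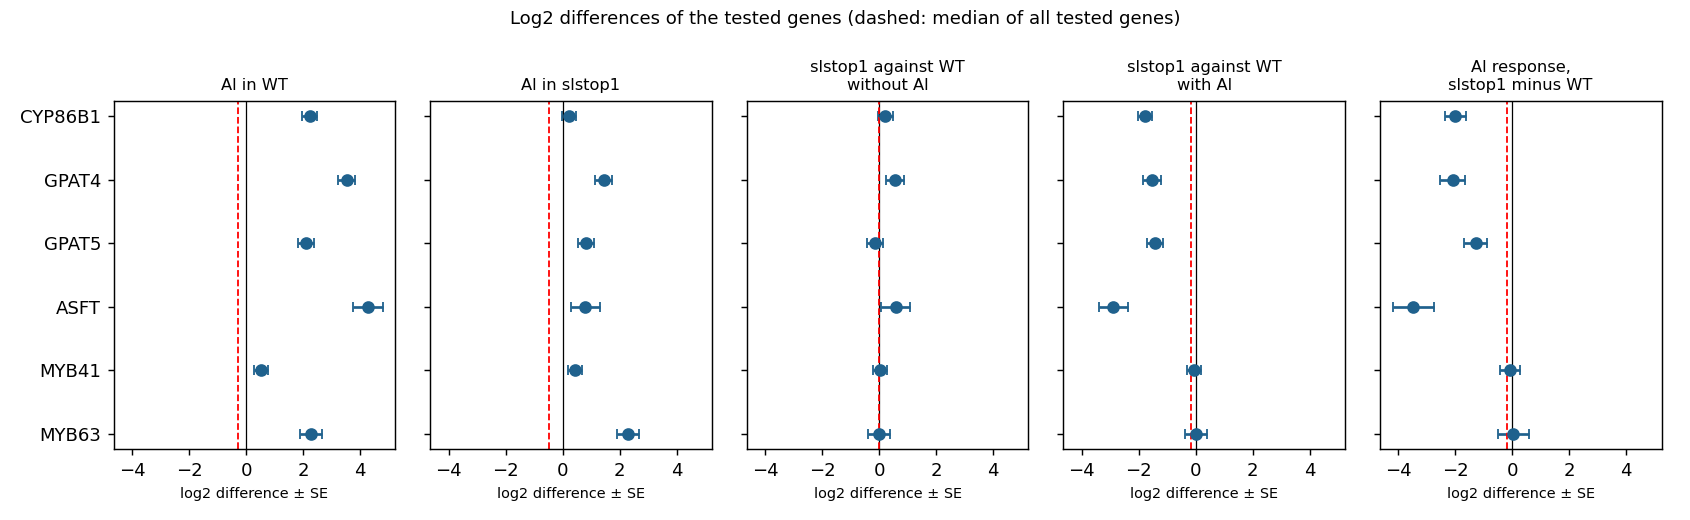
Log2 difference of FPKM + 1 (horizontal axis; points, with limma's SE as bars) of the 6 tested genes (vertical axis) in 5 comparisons; the dashed line is the median of all tested genes. The 4 enzymes lie to the right with Al in WT and to the left for slstop1 against WT with Al, while MYB41 and MYB63 lie near 0 in every comparison of the genotypes.

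The sizes followed the FPKM values. The Al response of ASFT was 4.27 ± 0.513 (log2, SE) in WT and 0.80 ± 0.513 in slstop1, that of GPAT4 3.53 ± 0.304 and 1.44 ± 0.304. For CYP86B1 it was 2.23 ± 0.255 in WT and 0.23 ± 0.255 in slstop1, and for GPAT5 2.11 ± 0.282 and 0.83 ± 0.282. The response of MYB63 was 2.27 ± 0.386 in WT and 2.31 ± 0.386 in slstop1, that of MYB41 0.52 ± 0.243 and 0.45 ± 0.243. The median over all tested genes was -0.27 in WT and -0.46 in slstop1, so even the small responses in slstop1 lay above most genes: ASFT stood at percentile 82.2 of the tested genes there and at percentile 98.9 in WT.

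The difference between the genotypes with Al was -2.89 ± 0.513 for ASFT, -1.78 ± 0.255 for CYP86B1, -1.54 ± 0.304 for GPAT4 and -1.43 ± 0.282 for GPAT5 (log2, SE), where the median of all genes was -0.16. Among the 15903 genes, ordered from the most negative difference, ASFT had rank 59. For MYB63 the difference was 0.02 ± 0.386 and for MYB41 -0.05 ± 0.243. Without Al the same difference was 0.59 ± 0.513 for ASFT, 0.55 ± 0.304 for GPAT4, 0.22 ± 0.255 for CYP86B1 and -0.15 ± 0.282 for GPAT5. These values without Al depended on which WT library without Al was left out. Without replicate 2, CYP86B1, GPAT4 and ASFT no longer overlapped between genotypes and stood 4.77, 2.40 and 2.83 times as high in slstop1 as in WT. MYB41 and MYB92 did not overlap then either, with slstop1 higher. GPAT5 still overlapped, but its ratio of slstop1 to WT turned from 0.558 to 1.33. Without replicate 3, CYP86B1, GPAT4 and ASFT overlapped, at 1.18, 1.19 and 1.10 times the WT mean, and the ratio of GPAT5 was 0.434.

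The Al response of slstop1 minus that of WT was -3.47 ± 0.726 for ASFT, -2.09 ± 0.430 for GPAT4, -2.00 ± 0.361 for CYP86B1 and -1.28 ± 0.399 for GPAT5 (log2, SE), against a median of -0.18 over all genes. It was -0.07 ± 0.344 for MYB41 and 0.04 ± 0.546 for MYB63. The calls for this comparison sat at the threshold: between 0 and 3 of the 6 genes were called when a single library was left out, and 0 with the replicate number as a block, while each enzyme's value stayed negative. The SE of MYB63 leaves room for a difference of either sign.

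**Figure D3:**
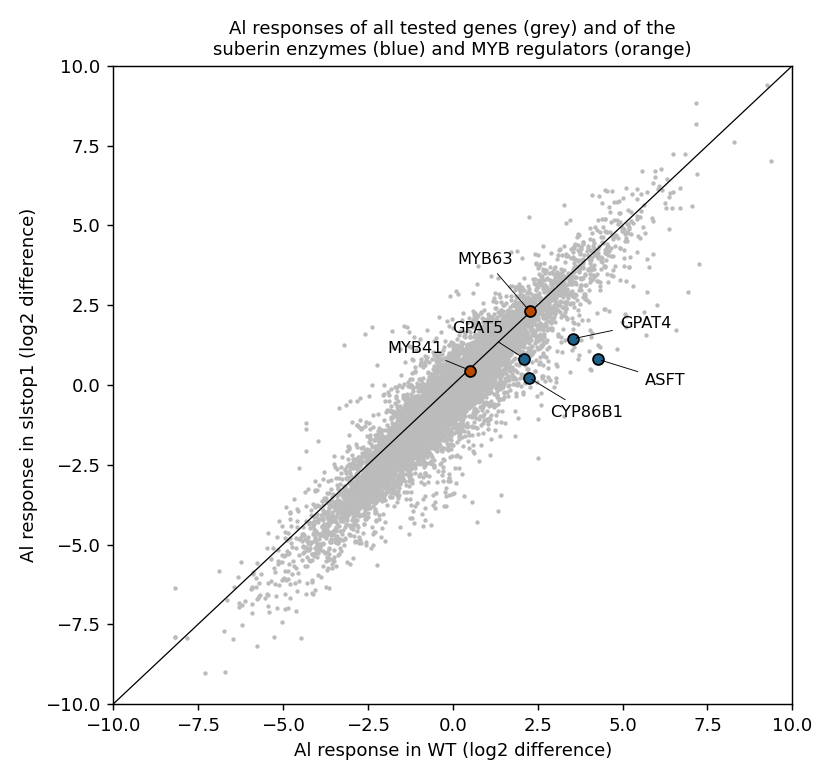
Al response in WT (horizontal axis) and in slstop1 (vertical axis), both as log2 differences of FPKM + 1, for all 15903 tested genes (grey), with the 4 enzymes in blue and MYB41 and MYB63 in orange; the line marks equal responses. The enzymes lie below the line, at 2.11 to 4.27 in WT and 0.23 to 1.44 in slstop1, and MYB63 lies on it.

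The enzymes also varied together from library to library. Over the 12 libraries the log2 values of the 4 tested enzymes correlated at r = 0.913 to 0.981 in their 6 pairs, which largely follows from their common group means. After the group means were taken off, r was 0.635 to 0.933 (12 libraries, which share their library total). This r was not computed between genes at large, so it cannot be called particular to the enzymes. Between the enzymes and MYB41 or MYB63 the same within-group r was 0.382 to 0.803, the highest for GPAT4 with MYB63. In WT without Al, all 6 genes were highest in replicate 2, by 0.40 to 1.02 (log2) over the group mean, while the median of all tested genes was 0.07 above it. In slstop1 with Al all 6 were highest in replicate 3, the 4 enzymes by 0.30 to 1.18, where the median of all genes was 0.0049 above it.

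**Figure D4:**
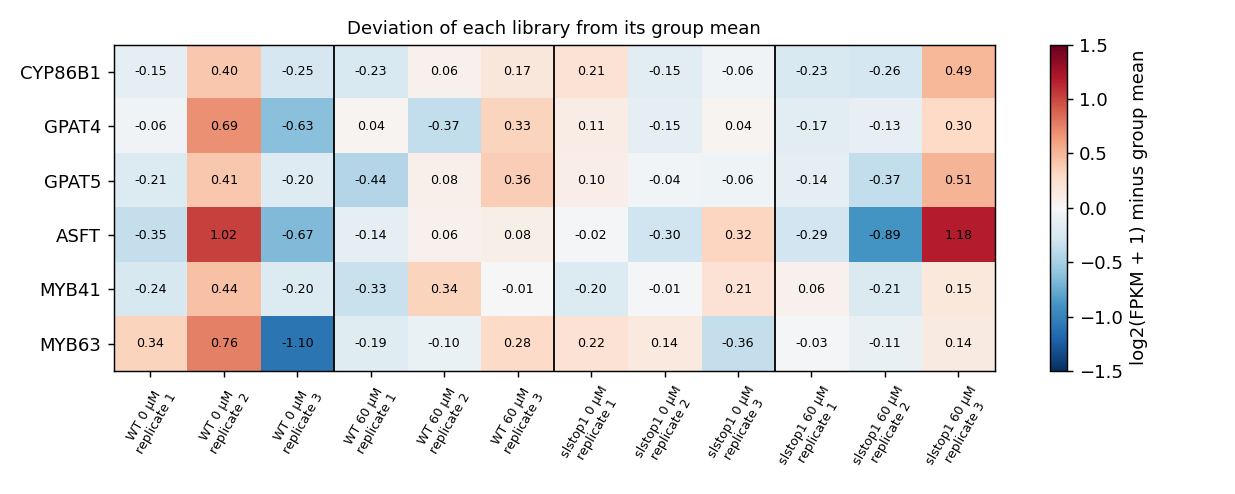
Deviation of log2(FPKM + 1) from the group mean for the 6 tested genes (rows) in the 12 libraries (columns), printed in each cell and coloured from blue (below) to red (above). The columns of replicate 2 of WT without Al and replicate 3 of slstop1 with Al are red in every row, up to 1.02 and 1.18 for ASFT.

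Against the mean profile of the 4 tested enzymes (their z-scored log2 values), ASFT, GPAT5, CYP86B1 and GPAT4 ranked 1, 3, 4 and 15 among the 15903 genes, which is in part by construction. MYB63 ranked 694 (r = 0.787) and MYB41 ranked 1762 (r = 0.713). The most similar other gene models over the 12 libraries were Solyc11g067190.2 (r = 0.990) and Solyc10g009240.3 (r = 0.984), for which the files give no name. Solyc11g067190.2 averaged 0.53 FPKM in WT without Al, 28.0 ± 7.85 FPKM with Al, 0.517 FPKM in slstop1 without Al and 3.48 ± 3.69 FPKM with Al. Its range in slstop1 with Al, 0.84 to 7.69 FPKM, lay below the 19.0 to 33.3 FPKM of WT. Solyc10g009240.3 stood at 11.3 to 15.3 FPKM in WT with Al, at 0.92 to 4.68 FPKM in slstop1 with Al and at no more than 1.47 FPKM in any library without Al.

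The gene models next to the suberin genes in identifier order were looked at to see whether a whole neighbourhood moved. Of 36 such models, 2 on each side of each of the 9 identifiers, 19 were tested. In limma's test 7 rose and 7 fell with Al in WT (21.9% and 39.0% of all tested genes), 6 rose and 7 fell in slstop1 (21.3% and 45.5%), and 4 differed between genotypes with Al (9.24%), 3 of them lower in slstop1. None was called without Al or for the difference in Al response (limma, 0 of 19 in each). Both counts lie near the shares of all tested genes, 0.176% without Al and 0.975% lower for the difference in Al response. At an unadjusted limma p under 0.05 there were 2 and 6. The share of all genes at that threshold was not computed, so these 2 counts have no background.

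The model beside ASFT, Solyc03g097510.1, was also lower in slstop1 with Al (log2 -4.47 ± 0.422, limma adjusted p = 0.00021). It averaged 28.6 ± 14.1 FPKM in WT without Al and 152 ± 34.4 FPKM with Al, but 8.04 ± 3.59 and 6.13 ± 2.68 FPKM in slstop1 (SD, n = 3). Its WT and slstop1 libraries did not overlap at either dose, whereas those of ASFT overlapped without Al, and its deviations from the group means did not follow those of ASFT (r = -0.04 over 12 libraries). Beside the LACS identifier, Solyc01g095740.3 averaged 1.46 FPKM in WT without Al and 6.81 FPKM with Al, and 1.06 and 1.91 FPKM in slstop1 (genotype difference with Al, log2 -1.46 ± 0.244, limma adjusted p = 0.00533). The neighbour of GPAT4, Solyc01g094690.3, went the other way from GPAT4, averaging 95.2 FPKM in WT and 85.3 FPKM in slstop1 at 0 µM, and 9.03 and 2.11 FPKM at 60 µM (genotype difference with Al -1.62 ± 0.280, limma adjusted p = 0.00598). The neighbour of MYB92, Solyc05g051530.3, was higher in slstop1 with Al, at 674 ± 61.1 FPKM against 309 ± 31.2 FPKM in WT (1.12 ± 0.250, limma adjusted p = 0.0193).

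Cutin, the polyester of the shoot surface, is made by related enzymes, and 10 cutin and wax genes listed from published tomato nomenclature were looked at beside the suberin genes. The table does not annotate these identifiers. Only 2 of the 10, CD2 and DCR, passed the filter, and CD3, a cutin hydroxylase of the CYP86A family, was listed at 0 in every library, as were the cuticle regulators SHN1 and SHN2. GPAT6, the cutin acyltransferase, stayed between 0.09 and 1.34 FPKM. Of the 2 tested genes 0 rose and 1 fell with Al in each genotype, where 39.0% of all tested genes fell in WT and 45.5% in slstop1. After median-of-ratios scaling or quantile normalisation 1 rose and 1 fell in each. Of all 15903 genes, 4505 rose and 5147 fell in WT after median-of-ratios scaling, and 5015 and 5675 in slstop1. With quantile normalisation these counts were 4617 and 4909 in WT and 5478 and 5010 in slstop1. In the values as deposited 0 were called between genotypes at either dose or for the difference in Al response. The shares of all tested genes were 0.176% without Al, 9.24% with Al and 0.975% for a lower response. At an unadjusted p under 0.05 there were 0 without Al, and the unadjusted limma p of CD2 was 0.0393 between genotypes with Al and 0.0263 for the difference in Al response. CD2, a homeodomain regulator of cuticle formation, fell in WT from 7.91 ± 1.88 to 2.97 ± 0.569 FPKM (log2 -1.15 ± 0.229, limma adjusted p = 0.00113) and in slstop1 from 10 ± 2.58 to 1.74 ± 0.365 FPKM (-1.98 ± 0.229, limma adjusted p = 1.67e-05). DCR, an acyltransferase of cutin, averaged 4.15 FPKM at 0 µM and 6.63 FPKM at 60 µM in WT, and 5.55 and 8.73 FPKM in slstop1, which did not pass (limma adjusted p = 0.0811 and 0.0583).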

How the data were processed

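Total RNA of tomato roots was sequenced in 12 libraries, 3 in each of 4 groups, grouped and numbered by their titles. The authors' deposited table gives 35768 gene models by 12 libraries. It names no unit, and the values the authors deposited were read as FPKM, from their decimals and the tools named; the columns sum to between 696287 and 719916. Per the submitters' processing notes, TopHat2, HISAT2, StringTie and Cufflinks were used, without versions or roles. Build, annotation release and use of strand in counting: not given in the sources used here. As the reads per library are unknown, values carry no counting error.

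Values were transformed as log2(FPKM + 1), and the 15903 gene models with at least 1 FPKM in at least 3 libraries were fitted with limma 3.58.1 in R 4.3.3 (group means over 12 libraries, 8 residual degrees of freedom, eBayes with trend, two-sided, Benjamini-Hochberg over all genes tested, called under 0.05). Errors of log2 differences are limma's SE. The p-values measure the spread between the 3 samples per group. On simulated data, 15088 genes with 200 changed in WT with Al, the procedure called 91% of the genes given a log2 change of 2 and 52% of those given 1 for the Al response in WT, and 75% and 22% for the difference in Al response. The changed genes were drawn only from those whose mean log2 level in WT without Al exceeded that of every suberin gene. In the real data 9688 genes were called for the Al response in WT. The simulated rates therefore do not carry over to the suberin genes. Other values and figures were computed with Python 3.11.15, pandas 2.3.3 and matplotlib 3.10.9.

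The members and lists were chosen with earlier results of these data known. Named genes are all members, the cutin and wax genes that were called, SlSTOP1 and FER as checks, the 2 most similar other gene models, and the neighbours in identifier order called between genotypes with Al. DCR, GPAT6, CD3, SHN1, SHN2 and the other root and leaf markers fall outside this rule and were named after their values were seen. The reference gene table at hand (SLM_r2.1) matched 0 of the identifiers. No library duplicated another: at least 95.5% of tested genes differed between any pair. Replicate 3 of WT without Al had the lowest mean Spearman correlation with its own group (0.918; others up to 0.965). Alternatives were other pseudocounts, filters and scalings, other eBayes settings, a block for the replicate number, fits of only the 6 libraries compared, and leaving out each library.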

Additional observations from a re-analysis of the deposited data

Results flagged for a closer look

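In limma's fit over all genes, 2 of the 6 suberin genes fitted had an adjusted p under 0.05 for the difference between the genotypes' Al responses, where 0.975% of all genes were called in that direction, and this is what singled them out. CYP86B1 passed the filter on low values only through libraries with Al, 3 of 3 in WT and 1 of 3 in slstop1, which favoured such a difference. The response of slstop1 minus that of WT was -2.00 (log2) for CYP86B1 and -2.09 for GPAT4. Both genes were chosen with these values known, so the calls are a description and no independent test. The call for CYP86B1 held in 9 of 20 alternatives and that for GPAT4 in 6 of 21. The values ran from -3.54 to -0.84 for CYP86B1 and from -2.43 to -1.53 for GPAT4. ASFT, with a larger value of -3.47 (-4.06 to -2.71 over the alternatives), was called in 4 of 21.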

How the results depend on the processing

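Named log2 differences kept their sign wherever they had been called: of 857 values under alternatives, 802 moved by less than the spread between replicates, 55 moved by more, and 0 of the called ones reversed. Counts of suberin genes called were less stable. With Al in WT 5 were called, 3 of 3 tested with a mean of at least 5 FPKM, and 5 to 6 when 1 library was left out. The upward calls over all genes in that comparison were 3478 of 15903, and 2779 of 10133 with the mean filter. They were 3039 to 3558 with 1 library left out. With Al in slstop1 the count of 3 became 5 with median-of-ratios scaling and 6 with quantile normalisation, and 2 to 3 when 1 library was left out. These scalings moved the median of all genes from -0.46 to -0.09 and 0.08. They also raised the upward calls over all 15903 genes from 3392 to 5015 and 5478. Between genotypes with Al the count of 4 became 2 of 3 tested with the mean filter and 2 without replicate 2 of slstop1 with Al (2 to 4 over all such fits). The lower calls over all genes were 1291 of 15903, 1205 of 10133 and 529 of 15903 in that order. For the difference in Al response the 2 calls became 1 with no filter on low values, median-of-ratios scaling or eBayes without trend, and 0 with a pseudocount of 0.1, quantile normalisation or the replicate block (0 to 3 with 1 library left out). The lower calls over all genes went from 155 of 15903 to 108 of 25056, 84 and 144. For the last 3 settings they were 218, 47 and 66. The cause was not tested.

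Over all genes, the 28 called between genotypes without Al became 16 with the mean filter, 10 with only the 6 libraries compared and 8 with the replicate block (10 to 51 with 1 library left out; 51 when this was replicate 3 of WT without Al). The 1469 called with Al became 783 with quantile normalisation and 910 with only the 6 libraries (591 to 2384), and the 163 for the difference in Al response became 100 with median-of-ratios scaling, 63 with quantile normalisation and 69 with the replicate block (55 to 360); median-of-ratios scaling also moved the split with Al from 178 higher and 1291 lower to 483 and 808. In 0 of 18 same-numbered pairs of libraries did deviations correlate above 0.1 (r from -0.24 to 0.093). Differently numbered pairs were not compared, so whether the replicate numbers pair the libraries is not settled. Cutin and wax genes called with Al were 1 of 2 tested in each genotype (all genes: 9688 of 15903 in WT, 10627 in slstop1). With no filter 3 of 7 were called in WT and 4 of 7 in slstop1 (10281 and 11312 of 25056). Either scaling gave 2 of 2 in both, 1 higher and 1 lower (9652 and 10690 with median-of-ratios scaling, 9526 and 10488 with quantile normalisation). In slstop1 2 of 2 were called with a pseudocount of 5 (10576) or only its 6 libraries (11453). With 1 library left out 1 to 2 of 2 were called in both (8730 to 9617 in WT, 9698 to 11248 in slstop1). The folds of CYP86B1 and GPAT5 rest on values under 1 FPKM, as most values of CYP86A1 and all of MYB92 were; reads per library are unknown, so what depth limits cannot be stated.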
